A study of Mus musculus with 9 samples.

Results

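The genes described here are the solute carriers that move inorganic ions and metals across membranes, in mouse macrophages with and without lipopolysaccharide. They were chosen by symbol as the protein-coding genes of the families Slc4a, Slc8a, Slc8b, Slc9a, Slc12a, Slc20a, Slc24a, Slc26a, Slc30a, Slc39a and Slc41a, a rule that reads symbols and gene types only. The rule left out the zinc carriers Slc30a1, Slc30a5, Slc39a10 and Slc39a14. It found 76 of the 50600 genes in the table. Of these 73 encode carriers, and 3 are adaptor proteins whose symbols match the pattern (Slc4a1ap, Slc9a3r1 and Slc9a3r2). A pseudogene, Slc39a1-ps, matched the symbol pattern but not the gene type.

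Solute carriers are membrane proteins that move a solute down its own gradient or couple it to the gradient of another ion, most often sodium, protons or chloride. Most Slc4 carriers move bicarbonate and Slc9 carriers exchange sodium for protons, so both families set the pH of the cytosol and of organelles. Slc12 carriers move chloride with sodium or potassium and set cell volume and cell chloride. Most Slc30 carriers (ZnT) take zinc out of the cytosol, into vesicles or out of the cell, and Slc39 carriers (ZIP) bring it in. In macrophages the proton carriers serve the acidification of phagosomes and the recovery of cytosolic pH during the oxidative burst, and the zinc and metal carriers take part in withholding metals from microbes or loading them onto microbes.

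The samples were cultures of RAW-Blue, a commercial line of mouse macrophages with an inflammation reporter, and are therefore 1 established line and not primary cells. All cells were kept in serum-containing medium with Normocin, Zeocin and Pen-Strep. The 3 None libraries came from cells without a stimulus, and the 3 LPS libraries from cells given lipopolysaccharide, the outer membrane component of Gram-negative bacteria that Tlr4 detects, at 1 µg/ml for 24 hours. The group LPS-PjELNs, which received plant nanovesicles before LPS, was not analysed here. The labels do not say whether replicates were separate cultures, so p-values measure the spread between these libraries, which may be technical. With bulk RNA, a change in the share of cells that express a gene and a change per cell cannot be told apart.

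Libraries held 14650825 to 17665201 counts. In the LPS libraries the 10 highest genes took 14.1% to 14.7% of all counts, against 9.71% to 10.3% in the None libraries, and the scaling factors were 0.899 to 0.941 against 1.083 to 1.103. None and LPS lay apart on the first axis of variation (90.9% of the variance); the second held 3.23%, with LPS replicate 1 at 23 and LPS replicates 2 and 3 at -7.5 and -16. All 9 macrophage markers passed the filter, with summed levels of 11100 to 12800 TPM in the None libraries and 17200 to 18900 TPM in the LPS libraries. Lyz2 held most of this sum, with means of 9714 TPM in None and 16560 TPM in LPS. The markers did not move together. By the test used below Lyz2, Itgam, Fcgr1 and Mrc1 were higher and Csf1r (526.9 to 176.8 TPM) and Ptprc lower. Cd68, Adgre1 and Spi1 were neither. The marker lists of fibroblasts, epithelium, T cells, B cells and red cells each summed to at most 1.72 TPM in every library. The neutrophil list summed to 0.66 to 1.29 TPM in None and 66.2 to 85.0 TPM in LPS, through S100a8 (8 counts in None, 642 in LPS), while Ly6g and Mpo had 0 counts in all 6 libraries. The part of these marker levels in the results below was not tested.

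LPS was set against None to ask how the macrophages' ion and metal carriers respond to the stimulus. After 24 hours of LPS more of these carriers were higher than lower. The largest increases at sizeable levels were those of the phosphate importer Slc20a1 (3.96-fold), the potassium-chloride cotransporter Slc12a4 (3.05-fold), the sodium-bicarbonate cotransporter Slc4a7 (3.00-fold) and the vesicular zinc carrier Slc30a4 (2.89-fold). The largest decreases were those of the endosomal sodium-proton exchanger Slc9a9 (8.52-fold lower), the chloride-bicarbonate exchanger Slc4a2 (2.63-fold lower) and the sulfate carrier Slc26a11 (2.49-fold lower). The 9 zinc carriers among these genes that were called (6 of 9 tested ZIP and 3 of 5 tested ZnT) were all higher under TMM. With library totals as the scale the call of Slc39a1 was lost, and Slc30a9, Slc39a9 and Slc39a11 were called lower. Of the 4 zinc carriers left out by the rule, Slc30a1 and Slc39a10 were higher, Slc30a5 was 1.74-fold lower and Slc39a14 was not called. Over all genes tested 34.0% were called higher and 35.1% lower. Slc30a2 and Slc39a4 had enough counts to be tested through the LPS libraries only. Slc9a9 was low, at 3.47 to 4.55 CPM in None, and passed the filter mainly through the None libraries. The call of Slc30a7 was lost, or its sign reversed, in other settings. Of the 4 tested sulfate and anion carriers 3 were lower.

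CPM is the count scaled to library size, by the library total alone for filter levels and with TMM factors elsewhere. Of the 76 members 45 had enough counts to be tested, and 39 of these reached the filter level of 0.612 CPM in every library. The other 6 passed mainly through 1 group. Slc30a2, Slc39a4 and Slc26a10 reached that level in LPS libraries only, Slc4a11 in 1 None library and 3 LPS libraries, and Slc8a2 and Slc9a9 in 3 None libraries and 1 LPS library. By edgeR's quasi-likelihood test, with an adjusted p under 0.05 as the call, 35 members were called (77.8%), where the background over all 11916 genes tested was 69.1%. Higher calls numbered 26 (57.8%) against 34.0% of all genes, and lower calls 9 (20%) against 35.1%. A call with at least a 2-fold increase was made for 10 members (22.2%, all genes 11.1%), and with at least a 2-fold decrease for 4 (8.89%, all genes 11.8%). The None and LPS libraries did not overlap for 36 members (80.0%, all genes 73.6%). The median log2 fold change was 0.44 over the members and -0.03 over all genes tested.

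The split of calls moved with the scaling of the libraries. Among the called members 74.3% were higher under TMM, 57.6% with library totals as the scale (written as totals hereafter) and 57.1% in a limma test on log2(TPM + 1). Among all called genes the shares were 49.2% under TMM and 30.6% with totals. Against TMM, scaling by totals moved the median log2 fold change of all genes by -0.26, and limma on log2(TPM + 1) moved it by -0.20. The plot of fold changes by carrier class shows both scalings.

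**Figure D1:**
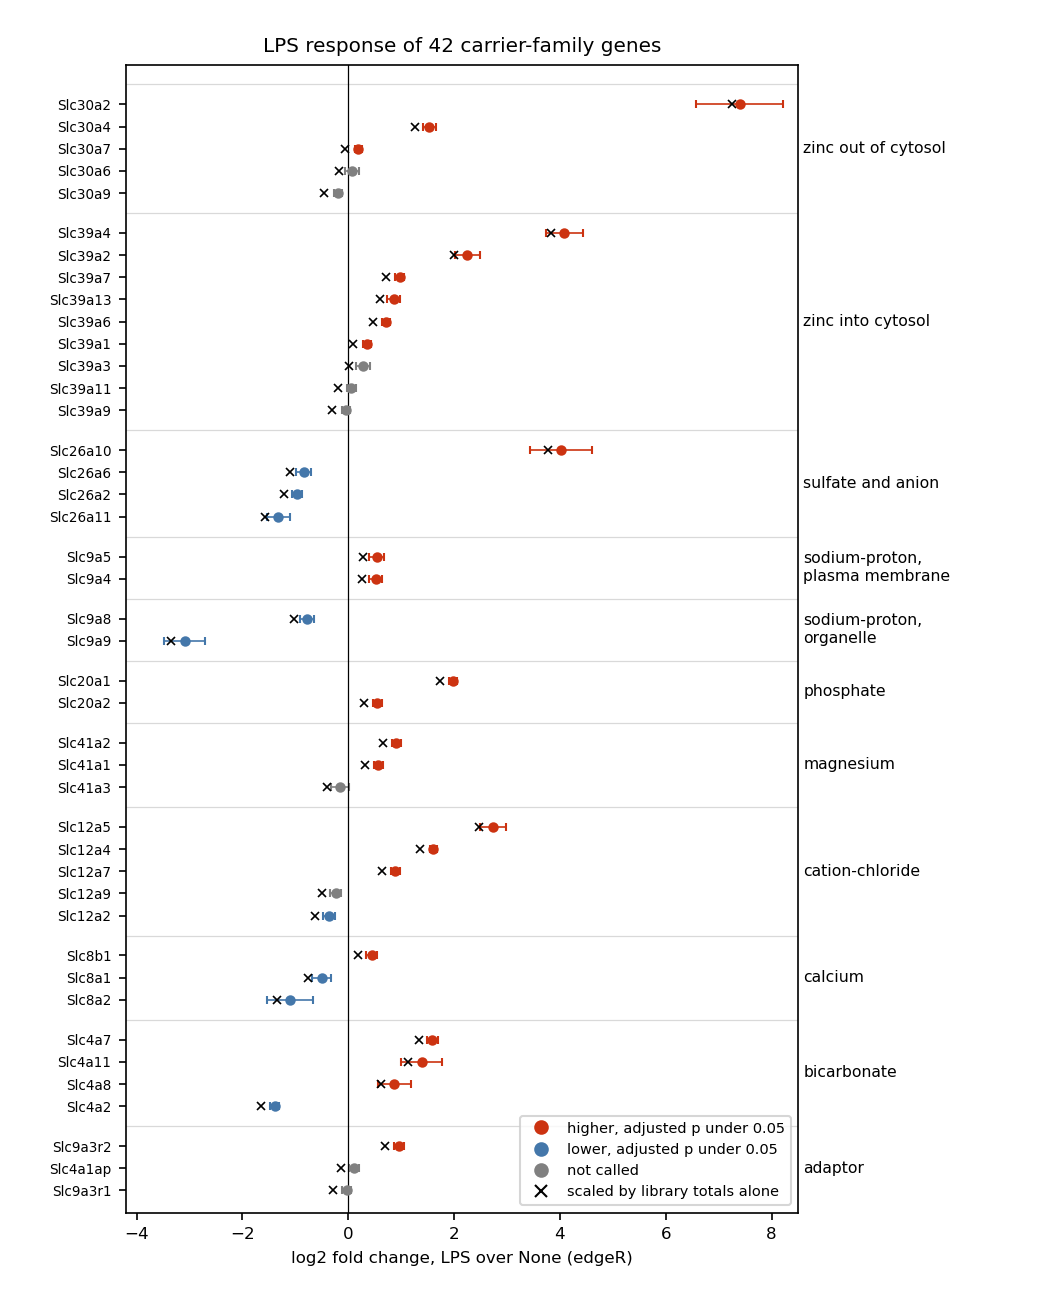
Fitted log2 fold change of LPS over None (x axis) for 42 tested members (y axis), grouped by carrier class. Points are edgeR estimates under TMM with standard errors as bars, coloured by call, and crosses are the estimates with libraries scaled by totals alone. Crosses lie left of the points for all 42 genes, and the sign changes for Slc30a7, Slc39a11, Slc4a1ap and Slc30a6.

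RefSeq promoter stretches of 6 members are shown, those of the 3 members with the largest called increase and the 2 with the largest called decrease that have an entry, and that of Slc20a1, which was added after its values were seen. The sequences are those of RefSeq on GRCm38.p6, and 59 of the 76 members have an entry. For Slc30a2 only the stretch that holds its 2 matches is printed, at chr4:134343252-134343272 on the plus strand. The RefSeq start of Slc30a2 lies 260 bases inside the gene as the files annotate it, so this stretch is upstream of the RefSeq start only. The others are the 250 bases before the RefSeq start, with Slc26a10 at chr10:127180583-127180832 on the minus strand and, on the plus strand, Slc12a5 at chr2:164967738-164967987, Slc20a1 at chr2:129198523-129198772, Slc9a9 at chr9:94669642-94669891 and Slc4a2 at chr5:24424982-24425231. Capitals mark matches to 1 of 4 motifs, searched on both strands without removing overlaps: the metal response element (TGCACNC or TGCGCNC), AP-1 (TGANTCA), the interferon-stimulated response element and the NF-kappaB site.
Slc30a2: GCGCGCAacttcgaGGGCGCA
Slc26a10: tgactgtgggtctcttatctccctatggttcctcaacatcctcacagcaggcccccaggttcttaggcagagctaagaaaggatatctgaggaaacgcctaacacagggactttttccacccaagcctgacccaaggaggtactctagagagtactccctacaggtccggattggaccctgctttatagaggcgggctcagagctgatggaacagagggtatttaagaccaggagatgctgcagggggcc
Slc12a5: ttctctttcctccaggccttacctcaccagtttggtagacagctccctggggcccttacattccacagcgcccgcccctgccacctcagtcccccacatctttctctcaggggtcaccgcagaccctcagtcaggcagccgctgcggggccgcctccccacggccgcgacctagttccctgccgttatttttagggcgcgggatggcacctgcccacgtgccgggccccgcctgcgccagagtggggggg
Slc20a1: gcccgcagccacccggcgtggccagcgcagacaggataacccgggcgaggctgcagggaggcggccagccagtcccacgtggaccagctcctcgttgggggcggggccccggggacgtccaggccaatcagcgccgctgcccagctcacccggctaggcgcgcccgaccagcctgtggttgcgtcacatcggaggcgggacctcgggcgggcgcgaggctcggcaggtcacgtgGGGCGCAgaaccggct
Slc9a9: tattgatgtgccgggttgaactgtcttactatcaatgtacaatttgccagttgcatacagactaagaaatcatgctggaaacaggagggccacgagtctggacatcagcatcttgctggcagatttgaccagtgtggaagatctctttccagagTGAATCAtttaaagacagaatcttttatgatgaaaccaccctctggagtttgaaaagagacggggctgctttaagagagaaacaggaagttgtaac
Slc4a2: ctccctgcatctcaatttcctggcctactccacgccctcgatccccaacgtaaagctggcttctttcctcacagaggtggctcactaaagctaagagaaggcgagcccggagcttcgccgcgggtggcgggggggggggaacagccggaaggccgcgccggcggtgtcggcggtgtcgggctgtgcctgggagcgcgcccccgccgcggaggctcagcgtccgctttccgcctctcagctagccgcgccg
In Slc30a2 the matches to the metal response element lie 214 and 200 bases before the RefSeq start. Slc20a1 has 1 such match, 16 bases before the start. Slc9a9 has 1 match to AP-1, 96 bases before the start. None of the 4 motifs matched in the windows of Slc26a10, Slc12a5 and Slc4a2. The windows of Slc20a1 and Slc4a2 are rich in G and C (75.2% and 69.2%), and that of Slc9a9 is not (42.8%).

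The metal response element occurred in 20 of 59 member windows, and in 21.3% of all 27025 windows. It was present in 6 of 18 members called higher, 1 of 6 called lower, 5 of 9 not called and 8 of 26 not tested. AP-1 matched 4 member windows (6.87% of all windows), NF-kappaB 4 (7.01%) and the interferon-stimulated element 1 (3.04%). These matches describe letters and were not tested as sites. Member windows were those of the RefSeq start nearest the gene start in the files, whereas the first RefSeq entry of each gene served for all windows. Some member starts still lay far from that gene start, such as Slc26a3 (47348 bases), Slc12a7 (30566), Slc4a7 (16505) and Slc41a3 (14521).

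Transcripts of both phosphate importers of the Slc20 family rose, Slc20a1 far more than Slc20a2. Slc20a1 (PiT-1, a sodium-phosphate cotransporter of the plasma membrane, chr2:129198764-129211616) stood at 46.5, 49.3 and 48.3 CPM in the None libraries and at 202, 191 and 178 CPM in the LPS libraries. Every LPS library lay far above every None library. The log2 fold change was 1.98 (SE 0.07), or 3.96-fold, with an adjusted p of 3e-10. Slc20a2 (PiT-2), its close relative, rose 1.47-fold, from 21.5, 21.1 and 18.7 CPM to 31.0, 30.3 and 28.6 CPM (adjusted p 0.00016). Within each library, which no scaling can alter, the TPM of Slc20a1 was 2.85, 2.90 and 3.02 times that of Slc20a2 in the None libraries and 7.64, 7.52 and 7.30 times in the LPS libraries. The pair was chosen after its values were seen. The 2 carriers summed to 30.1 ± 1.46 TPM (SD, n = 3) in None and 80.9 ± 6.83 TPM in LPS, and Slc20a1 made up 74.5% and 88.2% of the sum. Of the other phosphate carriers listed, the exporter Xpr1 and the pyrophosphate transporter gene Ank were tested and neither was called, with log2 fold changes of 0.10 and -0.19. With library totals 1 of these 2 was called lower.

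Of the 12 ZIP members, which bring zinc into the cytosol, 9 were tested, 6 rose and 3 were not called under TMM. Slc39a7 (ZIP7, which releases zinc from the endoplasmic reticulum, chr17:34028273-34031648) was the most abundant member of the Slc39 family after LPS. It measured 97.3, 95.6 and 98.6 CPM in None and 175, 180 and 218 CPM in LPS. The groups were well apart and LPS replicate 3 was highest. The change was 0.97 on the log2 scale (SE 0.09), 1.96-fold, with an adjusted p of 7.67e-07. Its level went from 61.3 ± 0.667 TPM to 103.6 ± 9.91 TPM (SD, n = 3). Its counts are partly divided with Gm20427, a same-strand transcript that shares 2084 exon bases and held 178 counts in None and 86 in LPS.

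Slc39a4 (ZIP4, the zinc uptake carrier of the intestine, chr15:76612391-76617384) was close to its detection limit without a stimulus. Its values were 0.217, 0.103 and 0.414 CPM in None and 3.62, 3.99 and 5.19 CPM in LPS. The log2 fold change was 4.08 (SE 0.35), 16.9-fold, with an adjusted p of 5.52e-07. Slc39a4 passed the filter through the LPS libraries only, so the separation of its groups followed from how it entered the test. Without None replicate 3 the log2 fold change was 4.68. Slc39a2 (ZIP2) was likewise low, at 0.760, 0.931 and 0.672 CPM in None and 3.41, 4.28 and 3.61 CPM in LPS. It rose 4.74-fold (log2 2.25, SE 0.24, adjusted p 3.43e-06). Slc39a2 shares 151 exon bases on the same strand with Mettl17, which had more counts and fell by 1.88 on the log2 scale, so how reads were divided between the pair is uncertain.

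The other ZIP genes changed less. Slc39a13 (ZIP13, of the secretory pathway) rose 1.81-fold, Slc39a6 (ZIP6) 1.64-fold and Slc39a1 (ZIP1, of the plasma membrane) 1.28-fold. Slc39a13 overlaps Psmc3 on the opposite strand over 215 exon bases, and Psmc3 fell by 0.31. The increase of Slc39a1, which ran from 119 to 126 CPM in None and from 146 to 177 CPM in LPS, was 0.35 on the log2 scale under TMM and 0.09 and not called with library totals. Slc39a3, Slc39a9 and Slc39a11 were not called, at 0.28, -0.04 and 0.06. With totals Slc39a9 was called lower (-0.30) and so was Slc39a11 (-0.20). Slc39a8 (ZIP8, a carrier of zinc and manganese) had 19 counts in None and 20 in LPS and was not tested, and Slc39a5 and Slc39a12 had 0 counts in every library. The 12 ZIP genes summed to 220.0 ± 7.01 TPM in None and 285.9 ± 7.86 TPM in LPS.

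Of the 8 ZnT members 5 were tested and 3 rose, while their summed level did not separate the groups. Slc30a4 (ZnT4, which loads zinc into vesicles) measured 15.2, 14.6 and 14.4 CPM in None and 48.2, 44.9 and 34.6 CPM in LPS. The groups did not overlap, and the increase was 1.53 on the log2 scale (SE 0.12), 2.89-fold, with an adjusted p of 2.35e-07. Slc30a2 (ZnT2, known from vesicles of secretory cells such as mammary gland, chr4:134343206-134354484) had 0 counts in all 3 None libraries, which allows up to 0.0525 CPM. It reached 0.924, 1.31 and 1.59 CPM in the LPS libraries, from 53 counts in all. Against a floor of 3 counts over the None group it was at least 24.2-fold higher (adjusted p 1.56e-05).

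Slc30a7 (ZnT7, of the Golgi) was called higher by 0.19 under TMM with an adjusted p of 0.0356. That call was lost, with the sign reversed to -0.07, when libraries were scaled by totals, and it was lost without any 1 of 5 of the 6 libraries. Slc30a9 (ZnT9, of mitochondria) was the highest of the ZnT members kept by the rule, by mean TPM over the 6 libraries. It measured 98.2, 90.9 and 96.7 CPM in None and 90.3, 86.2 and 74.0 CPM in LPS. These groups do not overlap, yet the change of -0.19 did not pass (adjusted p 0.0553), and it passed with totals at -0.45. Slc30a6 was not called (0.07). The ZnT sum was 58.1 ± 3.29 TPM in None and 54.7 ± 10.5 TPM in LPS, a difference smaller than the spread, and the ratio of LPS to None was 0.942 by TPM and 1.14 by summed TMM-scaled CPM. The ratio of the ZIP sum to the ZnT sum within a library was 3.74, 3.72 and 3.92 in None and 4.67, 4.67 and 6.81 in LPS. These sums leave out the 4 zinc carriers named in the opening, and the ZnT sum and the ratio depend on that. Mean TPM went from 53.15 in None to 26.28 in LPS for Slc30a5 and from 3.01 to 4.29 for Slc30a1. It went from 12.7 to 19.67 for Slc39a10 and from 15.73 to 19.25 for Slc39a14. The sums are by family and not by the direction in which each carrier moves zinc. Slc30a9 alone made up 41.9% of the ZnT sum in None and 33.6% in LPS. Slc30a4 relative to Slc30a9, per TPM, went from 0.155, 0.136 and 0.141 to 0.524, 0.465 and 0.452.

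Of 5 listed genes that buffer and sense zinc, 3 were tested and these rose, where 34.0% of all genes tested were called higher. Mt3 and Mt4 had 0 counts in all 6 libraries. Mt2, a metallothionein that binds zinc in the cytosol, rose by 2.97 on the log2 scale, Mt1 by 1.08 and the zinc-sensing transcription factor gene Mtf1 by 0.51. All 3 were also called higher with library totals. The 4 zinc carriers left out by the rule moved in both directions: Slc30a1 was 1.66-fold higher (adjusted p 3.81e-05), Slc39a10 1.80-fold higher (1.36e-06) and Slc30a5 1.74-fold lower (4.35e-06), while Slc39a14 was 1.11-fold higher and not called (0.157).

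Among the cation-chloride cotransporters, the potassium-chloride carriers Slc12a4, Slc12a5 and Slc12a7 rose at least 1.85-fold, and the sodium-potassium-chloride carrier Slc12a2 fell slightly. Slc12a4 (KCC1, which lets potassium and chloride leave the cell, chr8:105943593-105966097) measured 39.8, 37.3 and 37.0 CPM in None and 120, 110 and 118 CPM in LPS. The 2 groups were tight and far apart. The increase was 1.61 on the log2 scale (SE 0.07), 3.05-fold, with an adjusted p of 1.41e-09. Slc12a7 (KCC4) rose 1.85-fold, from 40.3, 37.5 and 36.8 CPM to 67.8, 68.4 and 76.1 CPM (adjusted p 6.18e-07). Slc12a5 (KCC2, best known as the chloride extruder of neurons, chr2:164967983-164999731) was low, at 0.760, 1.14 and 1.5 CPM in None and 9.16, 7.62 and 6.06 CPM in LPS. It rose 6.67-fold (log2 2.74, SE 0.25, adjusted p 8.31e-07), with no overlap between groups.

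Slc12a2 (NKCC1, which brings sodium, potassium and chloride in) went from 17.7, 20.6 and 22.5 CPM to 16.2, 16.5 and 14.9 CPM. The groups did not overlap, and the change of -0.36 (SE 0.11) passed with an adjusted p of 0.0109, or 0.0652 without None replicate 3. Slc12a9 was not called (-0.24) under TMM, with overlapping groups. Within libraries the TPM of Slc12a4 was 5.2, 3.6 and 3.28 times that of Slc12a2 in None and 16.0, 14.6 and 17.9 times in LPS. Slc12a4 went from 20.8% to 41.3% of the summed TPM of the class, and the sum from 75.0 ± 7.48 TPM to 103.8 ± 1.01 TPM.

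The WNK kinases and their partners Oxsr1 and Stk39 phosphorylate these cotransporters, which turns Slc12a2 on and the potassium-chloride carriers off. Of 8 tested genes of this pathway 6 were called higher and 1 lower under TMM, but 2 higher and 1 lower with totals. Under TMM the shares over all genes tested were 34.0% higher and 35.1% lower. Wnk2 rose by 3.35 on the log2 scale of CPM from a very low level, with 9 counts in None and 70 in LPS. It reached the filter level in LPS libraries only. In TPM its groups overlapped, at 0.03, 0.30 and 0.02 in None and 0.26, 0.54 and 0.35 in LPS. Nedd4l rose by 0.73 (0.18 to 0.257 TPM), and Sgk1, a serum- and hormone-induced kinase gene, fell by 1.79.

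**Figure D2:**
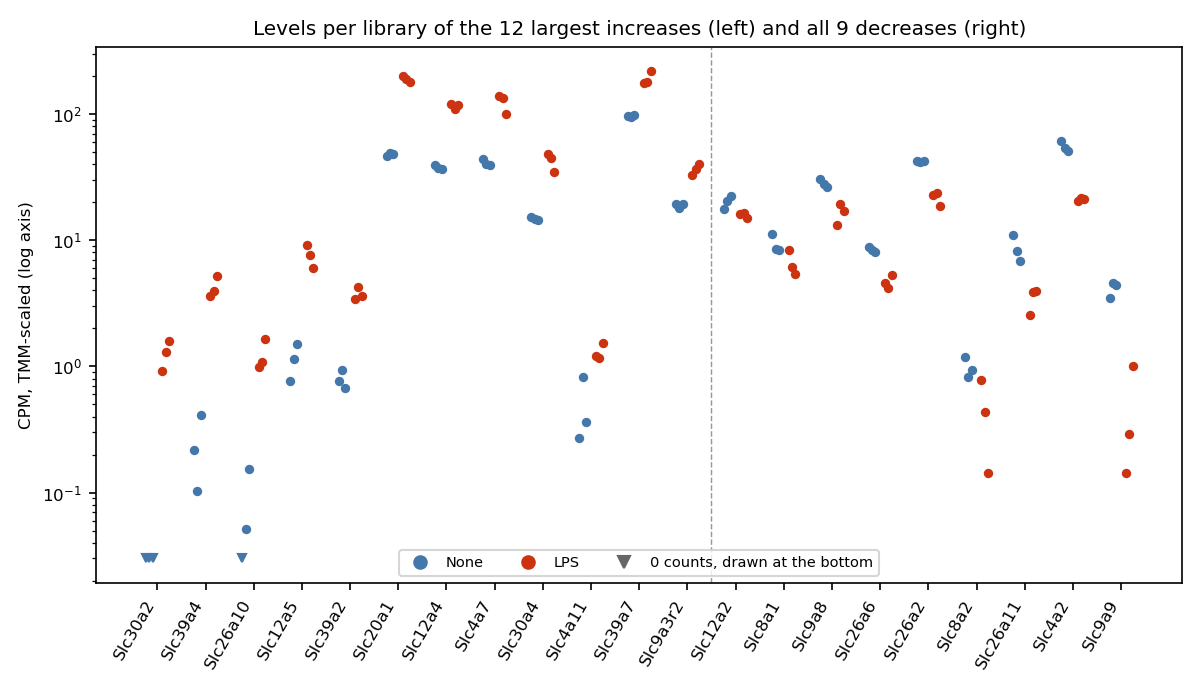
Levels in each library, in TMM-scaled CPM on a log axis, of the 12 members with the largest called increase (left) and of the 9 members called lower (right). Each point is 1 library, None and LPS in different colours, and triangles at the bottom mark 0 counts. None and LPS points do not overlap for any of the 21 genes, which were drawn because they were called in these same libraries. Of all genes tested 73.6% do not overlap.

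Bicarbonate carriers of the Slc4 family changed in opposite directions. Slc4a2 (AE2, which exports bicarbonate for chloride and so lowers cytosolic pH, chr5:24425232-24440950) measured 61.4, 54.0 and 50.7 CPM in None and 20.3, 21.5 and 21.4 CPM in LPS. Every LPS library was below every None library, and the log2 fold change was -1.39 (SE 0.09), 2.63-fold lower, with an adjusted p of 5.76e-08. Slc4a2 shares 1141 exon bases with Fastk on the opposite strand, and Fastk rose by 0.62. Slc4a7 (NBCn1, which brings bicarbonate in with sodium and so raises cytosolic pH, chr14:14702279-14799940) measured 44.4, 40.3 and 39.3 CPM in None and 138, 133 and 101 CPM in LPS. It rose by 1.59 (SE 0.11), 3.00-fold, with an adjusted p of 8.47e-08, and LPS replicate 3 was the lowest of the LPS libraries but above all None libraries.

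Per TPM, Slc4a7 was 0.231, 0.310 and 0.320 times Slc4a2 in None and 1.97, 2.21 and 1.45 times in LPS, so the more abundant of the pair changed from Slc4a2 to Slc4a7 in every library. Slc4a2 made up 75.4% ± 3.8 of the summed TPM of the Slc4 carriers (the bicarbonate class) in None and 33.4% ± 3.9 in LPS, and Slc4a7 21.5% ± 2.7 and 61.7% ± 6.3 (SD, n = 3). Their sum, 33.6 ± 7.14 TPM in None and 29.5 ± 2.80 TPM in LPS, differed by less than the spread. On this length-scaled measure the ratio of LPS to None was 0.878, whereas for summed TMM-scaled CPM, which are not per length, it was 1.51. Slc4a11 and Slc4a8 were near the filter level. Slc4a11 measured 0.271, 0.827 and 0.362 CPM in None and 1.21, 1.16 and 1.52 CPM in LPS (log2 1.39, SE 0.39, adjusted p 0.00711). Without None replicate 2 its log2 fold change was 2.0. Slc4a8 was called higher by 0.87 (adjusted p 0.0251) and not called without None replicate 1, LPS replicate 2 or LPS replicate 3 (0.0988, 0.0721 and 0.0865) or with totals. In limma on log2(TPM + 1) neither was called, with adjusted p values of 0.413 for Slc4a11 and 0.749 for Slc4a8. Of the other 6 Slc4 carriers 5 had 0 counts in all libraries, and Slc4a9 had 0 counts in None and 8 in LPS.

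**Figure D3:**
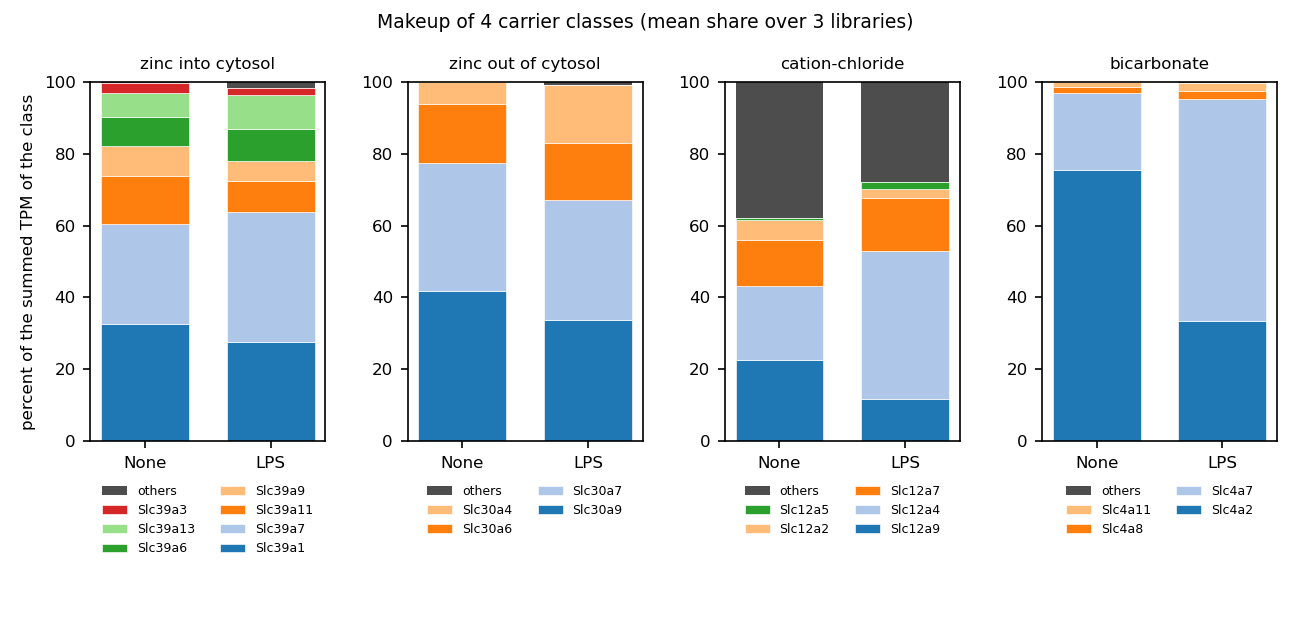
Shares of the genes in the key in the summed TPM of 4 carrier classes (y axis, percent), with all others pooled, as the mean over 3 libraries for None and for LPS. Slc4a7 goes from 21.5% to 61.7% of the bicarbonate class and Slc4a2 from 75.4% to 33.4%, and Slc12a4 goes from 20.8% to 41.3% of the cation-chloride class.

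Of the genes listed as partners of cytosolic pH and bicarbonate, 13 were tested, 11 rose (all genes 34.0%) and 2 were not called. With totals 10 were higher and 1 lower. Carbonic anhydrases, which interconvert carbon dioxide and bicarbonate, showed the largest increases. Of these Car4 and Car6, counted among the 11, reached the filter level of 0.612 CPM in LPS libraries only. Car4, a membrane-bound form, had 0 counts in None and 733 in LPS, at least 335-fold higher, with LPS replicate 1 at 31.0 CPM and replicates 2 and 3 at 11.4 and 10.1 CPM. Car6 rose by 3.72 on the log2 scale and Car13 by 2.7.

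Among the sodium-proton exchangers, Slc9a8 and Slc9a9 of organelles fell, and Slc9a4 and Slc9a5 of the plasma membrane rose a little. Slc9a5 and Slc9a4 were called higher by 0.54 and 0.52, and neither was called with totals. Slc9a9 (NHE9, of late endosomes, chr9:94669909-95230445) measured 3.47, 4.55 and 4.39 CPM in None and 0.142, 0.290 and 1.01 CPM in LPS. LPS replicate 3 was the highest of the LPS libraries and still below every None library. The log2 fold change was -3.09 (SE 0.39), 8.52-fold lower, with an adjusted p of 1.79e-05, and -4.21 without LPS replicate 3.

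Slc9a8 (NHE8, of the Golgi and endosomes) measured 30.5, 27.7 and 26.5 CPM in None and 13.1, 19.4 and 17 CPM in LPS. It was 1.71-fold lower (log2 -0.78, SE 0.13, adjusted p 0.00015), with no overlap between groups. Slc9a7 (of the trans-Golgi) had 0 counts in every library. The summed TPM of the plasma membrane exchangers was 30.2 ± 1.22 in None and 35.3 ± 1.82 in LPS, and that of the organelle exchangers 29.1 ± 1.05 and 23.2 ± 1.47. Of 20 tested subunits of the vacuolar proton pump, which acidifies the same organelles, 15 were called higher (all genes 34.0%) and 5 were not called. With totals 8 were higher and 3 lower. Atp6v0c, Atp6v1h and Tcirg1 rose by 0.97, 0.86 and 0.71 on the log2 scale.

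Among the 3 adaptors, Slc9a3r2 (NHERF2, a scaffold for exchangers and other membrane proteins) rose 1.95-fold, from 19.3, 18 and 19.2 CPM to 32.7, 37.0 and 40.3 CPM (adjusted p 2.54e-06), with all LPS libraries above the None libraries. Its relative Slc9a3r1 (NHERF1), at 32.8 to 39.2 CPM in None and 33.7 to 36.4 CPM in LPS, was not called (-0.03), nor was Slc4a1ap (0.11). With totals Slc9a3r1 was called lower (-0.29).

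Of the 11 sulfate and anion carriers of the Slc26 family 4 were tested, and 3 fell and 1 rose. Slc26a2, the carrier that supplies sulfate for proteoglycan synthesis, measured 42.3, 42.0 and 42.2 CPM in None and 22.7, 23.5 and 18.7 CPM in LPS. It was 1.95-fold lower (log2 -0.97, SE 0.10, adjusted p 2.1e-06), and the None libraries were nearly identical. Slc26a11, a sulfate carrier of lysosomes and the plasma membrane, went from 11, 8.27 and 6.82 CPM to 2.56, 3.92 and 3.97 CPM. It was 2.49-fold lower (log2 -1.32, SE 0.22, adjusted p 0.000149). Slc26a6, an exchanger of chloride, bicarbonate and oxalate, went from 8.90, 8.37 and 8.12 CPM to 4.62, 4.21 and 5.34 CPM, 1.79-fold lower (adjusted p 0.000215). None of these 3 genes had overlapping groups.

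Slc26a10, of unknown transport function, had 4 counts in the None libraries together and 52 in the LPS libraries (0, 0.0517 and 0.155 CPM against 0.995, 1.09 and 1.66 CPM). It was called higher at 16.2-fold (log2 4.02, SE 0.58, adjusted p 5.46e-05), and the log2 value was 5.19 without None replicate 3. Slc26a10 passed the filter through the LPS libraries only. It overlaps B4galnt1 on the opposite strand over 715 exon bases, and B4galnt1 had 8203 counts in None and 4051 in LPS, so reads of the pair cannot be told apart without strand. Of the other 7 Slc26 members 5 had 0 counts throughout. The class summed to 21.3 ± 0.596 TPM in None and 11.7 ± 1.62 TPM in LPS, with no overlap between groups. Of 16 tested chloride channel genes 8 were called higher and 2 lower (6 and 4 with totals), against 34.0% and 35.1% of all genes under TMM. Clic1 rose by 1.46 on the log2 scale and Clcn5, of endosomes, by 0.82, and Clcn4, its close relative, fell by 1.59.

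**Figure D4:**
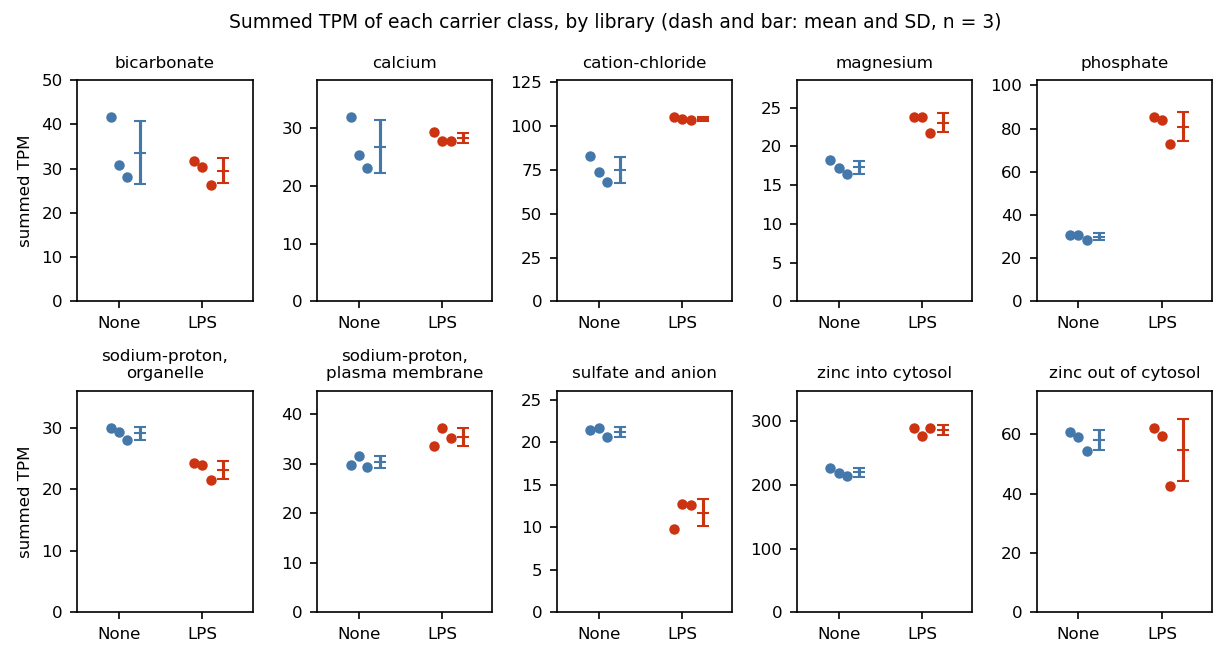
Summed TPM of each carrier class (y axis, linear from 0) in every library, with the mean and SD of 3 libraries per group. The phosphate class goes from 30.1 to 80.9 TPM, the ZIP class from 220.0 to 285.9 TPM, and the sulfate and anion class from 21.3 to 11.7 TPM.

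Of the 9 calcium exchangers 3 were tested, and 1 was called higher and 2 lower. Slc8b1 (NCLX, which lets calcium out of mitochondria in exchange for sodium) measured 53.7, 41.6 and 39.2 CPM in None and 60.9, 58.5 and 63.3 CPM in LPS. Although None replicate 1 came close to the LPS libraries, the groups did not overlap. The increase of 0.44 (SE 0.11) passed under TMM with an adjusted p of 0.00258 and did not with totals (0.18, adjusted p 0.127). Slc8a1 (NCX1, the calcium exporter of the plasma membrane) went from 11.2, 8.53 and 8.32 CPM to 8.31, 6.10 and 5.41 CPM. LPS replicate 1 lay just under the lowest None library. The log2 fold change was -0.50 (SE 0.18, adjusted p 0.0256), and the call was lost without None replicate 1 (0.12), LPS replicate 2 (0.0891) or LPS replicate 3 (0.111).

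Slc8a2 (NCX2, of the brain) was near the filter level, at 1.19, 0.827 and 0.931 CPM in None and 0.781, 0.436 and 0.144 CPM in LPS. Its call (log2 -1.10, SE 0.44, adjusted p 0.0436) was lost without any 1 of the libraries other than LPS replicate 1, with adjusted p values of 0.131, 0.0521 and 0.0739 without None replicates 1, 2 and 3, and of 0.111 and 0.169 without LPS replicates 2 and 3. Without LPS replicate 1 it was -1.74 (0.00873). No member of the potassium-dependent family Slc24 passed the filter. Its highest member, Slc24a5 (of pigment cell organelles), had 43 counts in None and 19 in LPS, and overlaps Myef2 on the opposite strand over 921 exon bases. Of 8 tested genes of the mitochondrial calcium uniporter 5 were called higher and 1 lower (3 and 2 with totals). Mcub, the subunit that dampens the channel, rose by 1.66 on the log2 scale and Micu3 by 1.03, and Mcur1 fell by 1.06. Of 8 tested sodium and calcium pumps 5 were higher and 1 lower (4 and 3 with totals). For both lists the TMM shares over all genes tested were 34.0% higher and 35.1% lower. The pump of the endoplasmic reticulum Atp2a2 rose by 0.99 and the calcium pump of the plasma membrane Atp2b1 by 0.61.

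Of the 3 magnesium carriers of the Slc41 family 2 rose. Slc41a2 measured 18.5, 18.5 and 17.5 CPM in None and 35.2, 36.5 and 30.9 CPM in LPS, with the groups well apart, and was 1.88-fold higher (log2 0.91, SE 0.09, adjusted p 2.72e-06). Slc41a1 (sodium-magnesium exchange at the plasma membrane) was 1.48-fold higher (adjusted p 8.66e-05), and Slc41a3 (of mitochondria) was not called (-0.15). Their sum went from 17.3 ± 0.838 TPM to 23.1 ± 1.19 TPM. Of 11 other tested genes of magnesium transport 3 were called higher and 6 lower, with the same counts when scaled by totals. Under TMM 34.0% of all genes tested were higher and 35.1% lower. Cnnm2 rose by 1.31 and Tusc3 by 0.90 on the log2 scale, and the channel kinase Trpm7, the main magnesium entry route of many cells, fell by 1.11.

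The remaining 31 members were not tested, and 19 of them had 0 counts in all 6 libraries. A count of 0 allows up to 0.0525 CPM over the None libraries and 0.0719 CPM over the LPS libraries. The 19 include genes known for specialised tissues, such as Slc4a1 (red cells), Slc12a3 (kidney), Slc26a5 (hair cells of the ear), Slc26a3 (colon) and Slc30a8 (insulin granules). The other 12 had at most 62 counts in all. Among these Slc24a1 and Slc26a9 each had 2 counts in None and 13 in LPS, a ratio of 8.9 after scaling with a counting interval of 2.02 to 81.2. Slc9a2 had 1 and 7 counts (9.59, interval 1.23 to 432), and Slc4a9, with 0 and 8, was at least 3.65-fold higher. These exact 95% intervals cover counting error only.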

How the data were processed

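Total RNA of RAW-Blue cells was sequenced as paired reads, per the labels' protocols. Alignment to GRCm38 and quantification drew on STAR 2.7.10a and RSEM 1.3.1, per the submitters' processing notes, which give no order of steps. The deposited tables hold expected counts, the authors' estimates per gene that need not be whole, and TPM, which the authors scaled for transcript length to a fixed sum per library, per the file headers and values. Strandedness and polyA selection are not given in the sources used here. Of the library columns, 6 matched the None and LPS labels, 12 matched none and were not used, and none matched LPS-PjELNs. Coordinates are those of the files, 1-based, on GRCm38.

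Expected counts were rounded, kept by filterByExpr (count minimum 10, total 15), scaled by TMM and tested two-sided with edgeR 4.0.16 (glmQLFit, glmQLFTest; R 4.3.3), with group as the single term, Benjamini-Hochberg adjustment over all genes tested and a threshold of 0.05. Steps were tested on simulated data. SDs are over 3 libraries. TPM served to compare genes and to sum classes, also between None and LPS, and CPM to compare a gene between libraries. Where a group had 0 counts, folds used a floor of 3 counts over the group. Libraries of a group differed by more than sampling noise. Alternatives were RLE scaling, library totals, DESeq2 1.42.0, no filter, a filter of 1 CPM in 3 libraries, limma 3.58.1 on log2(TPM + 1) or log2(TPM + 0.1), a replicate block and leaving out each library.

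Values per library were given by rule for up to 12 of the largest called increases and decreases and the highest member by TPM of each family, and for others chosen after their values were seen. The members and the 9 partner lists, whose 3 largest called changes are named, were chosen with earlier results of these data known. Some members and list genes are not reported here. A planned search of protein motifs was not made here.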

Additional observations from a re-analysis of the deposited data

How the results depend on the processing

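Of the 35 called members 21 held call and direction in all 15 alternative settings, 14 lost the call in at least 1, and 2 of these changed sign in at least 1. Of the 10 members tested and not called 6 were called in at least 1 setting. Members called higher numbered 16 in limma on log2(TPM + 1), 16 on log2(TPM + 0.1) and 17 on log2(TPM + 1) without a filter, against 26, and members called lower numbered 14 with totals, against 9. With totals the sign changed for Slc30a7 (-0.07) and for the uncalled Slc39a11 (-0.20), Slc4a1ap (-0.14) and Slc30a6 (-0.18), and for Slc30a7 in limma on TPM (-0.18 with a pseudocount of 1, with and without a filter, and -0.19 with 0.1). Leaving out 1 library at a time gave 24 to 25 members higher, 7 to 10 lower and 7507 to 8103 of all genes called. Same-numbered None and LPS libraries did not deviate together (correlations 0.082, -0.02 and 0.01), so the numbers were not taken as pairs. A fit with the replicate block called 26 members higher and 10 lower and 8362 of all genes, and the added call was Slc30a9 (-0.19, adjusted p 0.0403). Without a filter 28 members were higher and 11 lower, among them Slc4a9, Slc24a1 and Slc26a9, which rest on 8 to 15 counts. Fold changes on the log2(TPM + 1) scale understate low genes, such as Slc9a9 (-1.12) and Slc39a4 (1.5). The causes of lost calls were not tested. Depth limits the members under about 1 CPM, where single counts move the fold.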
